A study of Drosophila melanogaster with 2 samples.

Results

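MicroRNA genes encode short hairpin precursors, and 260 such genes on arms 2L, 2R, 3L, 3R, 4 and X of the Drosophila melanogaster genome were examined for binding of Engrailed-GFP. They were chosen by gene symbol in the Ensembl annotation, among 17683 annotated genes on these arms, and all 260 hairpins had identical coordinates in the RefSeq annotation, which labels them as microRNA genes. Binding was mapped in whole embryos of mixed sex, 0 to 16 h old, of a transgenic line (strain 3T-GFP) that stably expresses the homeodomain protein Engrailed (En) fused at its C-terminus to GFP, a fluorescent tag. Sonicated chromatin was immunoprecipitated and sequenced, by one label with an anti-GFP antibody and by another with an antibody given as en. The labels do not say whether the endogenous en gene was intact. The series held 1 group of 2 biological replicates, numbered 1 and 3, with a list of 30000 regions for each replicate and for the pool of both, and a list of 2226 peaks selected by the irreproducible discovery rate (IDR) procedure. Each region carries a signal, the authors' own value on an unstated scale, which serves here to rank regions within 1 list. Read depth is unknown from these lists, no control library was analysed here, and whole embryos mix cells that do and do not express the tagged protein.

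A microRNA starts as part of a longer primary transcript, from which the nuclease Drosha and its partner Pasha cut the hairpin. Dicer-1 then releases a mature strand, which guides an Argonaute protein to messenger RNAs that pair with its seed, bases 2 to 8. Hairpins can lie in introns or exons of a host gene and share its promoter, or form transcripts of their own, and neighbouring hairpins often come from the same transcript. Engrailed is best known for keeping the posterior compartment of each segment distinct, and it can repress or activate its targets. These data show where the tagged protein was found and hold no measure of microRNA expression.

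Hairpins separated by gaps of at most 5000 bp were joined, which gave 202 loci, 176 with a single hairpin and 26 with more than 1 hairpin, holding 84 hairpins in all. The hairpins were 50 to 174 bp long, with a median of 92 bp. A locus was counted as having a peak where the summit of an IDR peak lay within 5000 bp of a hairpin end.

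The following mature sequences belong to loci among those with the strongest Engrailed-GFP peaks, in order of locus signal (mir-4981, the third in that order, is not shown), and are given because they identify the microRNAs on which the results turn. Each is the first product that RefSeq lists for its hairpin, with the arm of the hairpin it comes from, and the seed is in capitals.
mir-279, 3p arm: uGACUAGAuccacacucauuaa
mir-996, 3p arm: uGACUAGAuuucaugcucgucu
mir-4972, 5p arm: cCUCGGCUuuacagauauauau
mir-955, 5p arm: cAUCGUGCagagguuugaguguc
mir-4943, 5p arm: uUUUAUUUucucuguguuuuca
mir-9378, 5p arm: aGUGGAGUgagaccucgaguucgg
mir-ban, 3p arm: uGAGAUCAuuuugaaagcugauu
mir-92a, 3p arm: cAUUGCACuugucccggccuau
mir-92b, 3p arm: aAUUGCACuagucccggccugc
mir-1004, 3p arm: uCUCACAUcacuucccucacag
mir-282, 5p arm: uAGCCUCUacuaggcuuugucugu
mir-4949, 5p arm: cGGCACACucgcacacacaca
mir-9a, 5p arm: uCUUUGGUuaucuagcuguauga
The pairs mir-279 and mir-996, and mir-92a and mir-92b, share their seeds within the pair and sit at the same locus.

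Of the 202 microRNA loci, 45 had an IDR summit within 5000 bp, which is 22.3% (95% exact Clopper-Pearson interval 16.7 to 28.6, covering counting error only). The share of all annotated genes with an IDR summit within 5000 bp of the gene body was 27.9%, that of the other 749 genes of at most 200 bp was 25.6%, and that of genome positions taken every 1000 bp was 13.4%. The share of microRNA loci was therefore a little below that of other short genes and above that of evenly spaced positions, and no test was made of either difference. Taken hairpin by hairpin, 50 of 260 had a summit (19.2%, exact interval 14.6 to 24.6). The other short genes were not joined into loci, so this share is the like measure. It was below their 25.6%, again without a test. The 59 IDR peaks involved made up 2.65% of the IDR list, and 12 loci had more than 1 of them, with at most 3 at a locus.

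Few of these peaks were close to the hairpin itself. No summit lay inside a hairpin or within 100 bp of one, 3 of the 59 lay within 500 bp, 11 within 1000 bp and 21 within 2000 bp, and the median distance was 2790 bp. Within 1000 bp, 4.95% of the microRNA loci and 7.21% of the other short genes had a summit. Within 2000 bp, 9.41% of the microRNA loci had a summit, against 15.5% of the other short genes and 18.4% of all genes, while within 10000 bp the shares were 37.1%, 36.6% and 40.2%. The share of microRNA loci was thus below that of the other short genes at 1000 and 2000 bp and close to it at 10000 bp, with no test of these differences. Hairpin by hairpin, which is the like measure, 10, 20 and 86 of 260 had a summit within 1000, 2000 and 10000 bp. The median distance from a locus to its nearest IDR summit was 16998.5 bp, and from a single hairpin 22259 bp. It was 17961 bp for the other short genes, 15555 bp for all genes and 31407 bp for genome positions. The other short genes were not joined into loci, so the value for single hairpins is the like measure, and it was the larger of the pair. On the strand of the nearest hairpin, 40 peaks lay upstream and 19 downstream, so 67.8% were upstream. Among the other short genes, 70.4% of pairs of a gene and a summit were upstream.

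**Figure D1:**
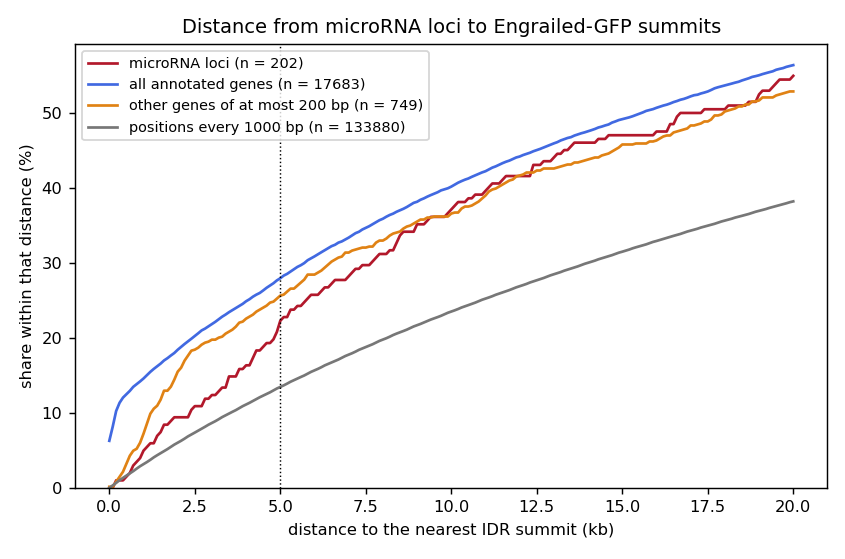
Share of microRNA loci, of all annotated genes, of other genes of at most 200 bp and of genome positions (vertical axis, percent) with an IDR summit within a given distance (horizontal axis, kb); the dotted line marks 5 kb. The microRNA curve lies below that of other short genes at 2 kb (9.41% against 15.5%) and beside it at 10 kb (37.1% against 36.6%). MicroRNA hairpins are joined into loci here and the other short genes are not.

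The strongest peak was at mir-279 and mir-996, a pair that restrains neuronal and follicle cell fates, including the formation of neurons that sense carbon dioxide. The hairpins of mir-279 (FBgn0262448, 3R:29215585-29215684, dm6, plus strand) and mir-996 (FBgn0262404, 3R:29217184-29217280) both lie in an exon of lncRNA:CR31044, annotated as a long noncoding RNA. The peak at 3R:29214277-29214592 had a signal of 167 in replicate 1, 299 in replicate 3 and 473 in the pool, with ranks 38, 27 and 32. Its summit was 115 bp from the transcription start site (TSS) of lncRNA:CR31044 and 1138 bp upstream of mir-279. All lists placed it among their strongest regions.

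A second peak of the same locus, at 3R:29220016-29220235, lay 2855 bp downstream of mir-996 and 37 bp from the TSS of eEF1gamma, a translation elongation factor gene. Its signals were 127 in replicate 1, 108 in replicate 3 and 232 in the pool. It ranked higher in replicate 1 (69) than in replicate 3 (330).

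The sequences at the summits of 6 of the strongest peaks follow because they are the DNA the peaks centre on, 61 bp each on the plus strand of dm6. Capitals mark matches to 4 motifs, which were searched on both strands. They were TAATTA as the core of homeodomain sites and GAGAG as the element of GAGA factor. CAGGTAG stands for the early activator Zelda, and TATCGATA for the promoter factor DREF.
mir-279, chr3R:29214417-29214477: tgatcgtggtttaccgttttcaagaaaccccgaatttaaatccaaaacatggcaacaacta
mir-4972, chr2L:3632445-3632505: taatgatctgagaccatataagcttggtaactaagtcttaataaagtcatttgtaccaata
mir-996, chr3R:29220105-29220165: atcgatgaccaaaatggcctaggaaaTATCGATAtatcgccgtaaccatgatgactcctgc
mir-955, chr3L:3301459-3301519: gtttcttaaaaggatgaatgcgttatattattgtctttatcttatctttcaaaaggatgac
mir-4943, chr2L:16533207-16533267: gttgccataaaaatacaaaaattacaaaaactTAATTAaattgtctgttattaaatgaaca
mir-9378, chr2L:10752060-10752120: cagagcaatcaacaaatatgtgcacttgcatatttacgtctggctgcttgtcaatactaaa
The DREF motif stood in the window at the eEF1gamma promoter and the homeodomain core in the window near mir-4943, the latter with 19.7% G+C.

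Over all 59 peaks near hairpins, TAATTA occurred within 50 bp of the summit in 5 (8.47%, against 7.73% of all 2226 IDR peaks). GAGAG occurred in 4 (6.78% against 10.4%), TATCGATA in 3 (5.08% against 1.75%) and CAGGTAG in 0 (against 0.404%). The TATCGATA matches were at the promoter peaks of eEF1gamma, of the ribosomal protein gene RpL36 near mir-9372, and of Hs3st-A near mir-4982. Both peaks at mir-8 held TAATTA. The median G+C content was 35.6%, against 33.7% over the whole IDR list. A match is a description of these letters and not a sign of binding by the factor.

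The bantam microRNA, listed as mir-ban, promotes growth and blocks cell death through the gene hid. Its hairpin (FBgn0262451, 3L:642208-642288, plus strand) lies in an exon of lncRNA:CR43334 and had an IDR peak on each side. The downstream peak, at 3L:644214-644392, had signals of 73.9 in replicate 1, 104 in replicate 3 and 179.6 in the pool, with ranks 310, 360 and 315. It lay 2040 bp past the hairpin and beyond the annotated end of the host, in intergenic sequence. The upstream peak, at 3L:640670-640796, had signals of 66.5, 69.4 and 134 in the same order. It lay within an exon of the host, 1032 bp from a host TSS. A further IDR peak of signal 194.9 stood at -7460 bp from the centre of the hairpin, on the upstream side and outside the 5000 bp window.

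For mir-9a, which keeps the number of sensory organ precursors in check by restraining senseless, the peak lay 4292 bp upstream of the hairpin (FBgn0262373, 3L:19565131-19565208). It spanned 3L:19560735-19560917 and had signals of 48.0 in replicate 1, 97.5 in replicate 3 and 150.3 in the pool. The replicates thus placed it at ranks 805 and 425. Its summit was 1797 bp from the TSS of the host lncRNA:CR45916 and 351 bp from that of lncRNA:CR44676, which lies on the opposite strand.

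The hairpin of mir-282 (FBgn0262368, 3L:3251022-3251118) had a pair of IDR summits in its host, lncRNA:CR43626, 447 and 247 bp from the host's TSS and 875 and 675 bp upstream of the hairpin. Their pooled signals were 154 and 109. Both overlapped the same region in each replicate, at rank 429 in replicate 1 and 395 in replicate 3, so the replicate lists show 1 region where the pooled list shows a pair. The same held for both peaks at mir-1004 and both at mir-4980.

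**Figure D2:**
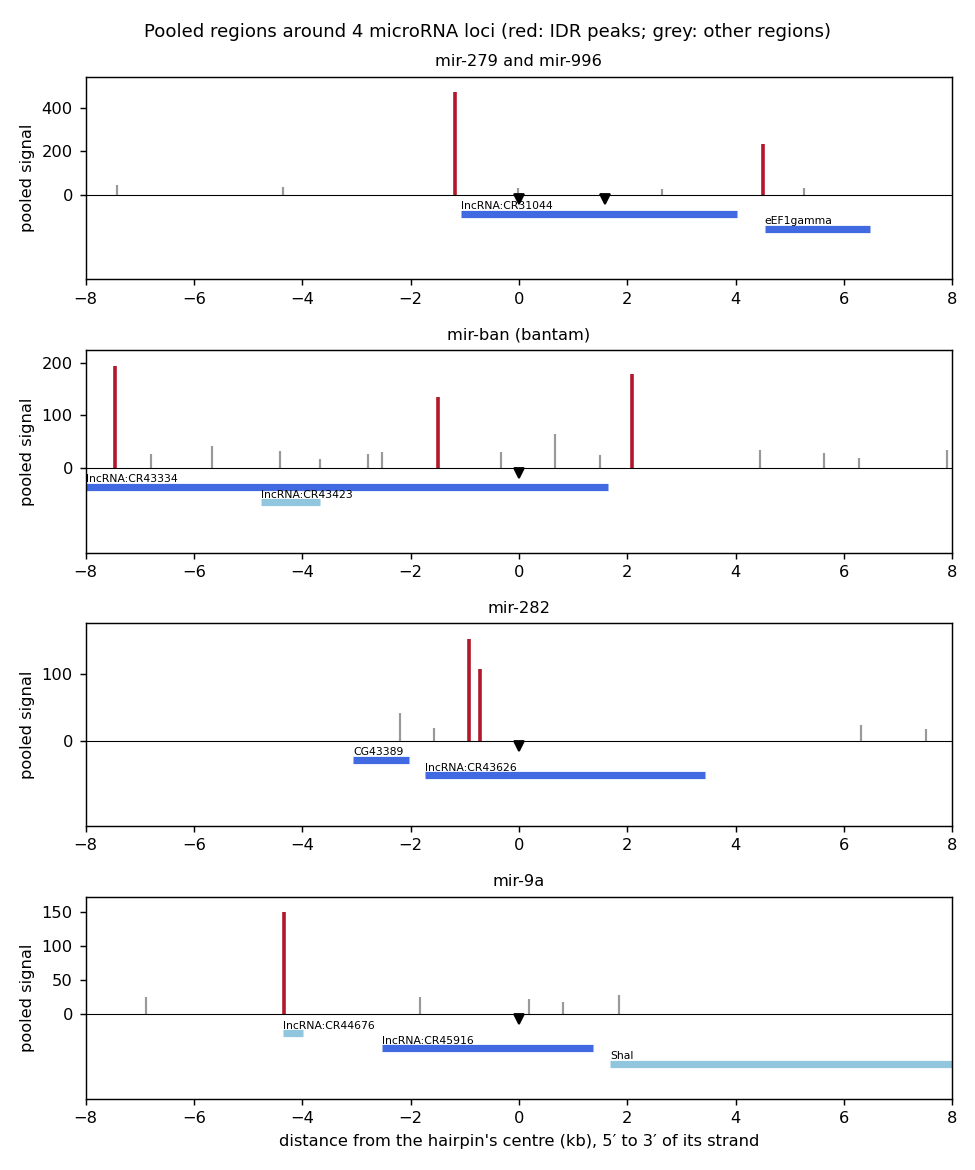
Pooled regions around mir-279 with mir-996, mir-ban, mir-282 and mir-9a: the horizontal axis is the distance from the hairpin's centre (kb, in the direction of its strand), the height of each line is the pooled signal, red lines are IDR peaks and grey lines other regions. Black triangles are hairpins, and bars are genes that reach within 5000 bp of the hairpin's centre, on its strand (blue) or the other strand (light blue); the tallest lines reach 472.7 at mir-279, 194.9 at mir-ban, 153.7 at mir-282 and 150.3 at mir-9a.

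In jigr1, a gene of neural progenitors, mir-92a (FBgn0262411, 3R:25646506-25646600) is intronic and mir-92b (FBgn0262388, 3R:25651398-25651497) exonic. The peak at 3R:25646871-25647266 had signals of 50.6 in replicate 1, 115 in replicate 3 and 165 in the pool. Its summit was 469 bp downstream of mir-92a and 177 bp from a TSS of jigr1. It ranked 717 in replicate 1 and 283 in replicate 3, so replicate 3 placed it higher.

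At mir-8, a conserved microRNA that affects body size through the insulin pathway, both peaks were upstream of the hairpin (FBgn0262432, 2R:16831432-16831518). The first, 3073 bp away, had signals of 48.7 in replicate 1, 72.6 in replicate 3 and 119 in the pool. The other, 921 bp away and 178 bp from the TSS of the host lncRNA:CR43650, had signals of 62.5, 47.4 and 100.1. The order of these peaks therefore differed between the replicates.

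The locus of mir-277, linked to metabolism of branched-chain amino acids, and mir-34, linked to ageing of the nervous system, shared a peak of pooled signal 90.7 in an exon of lncRNA:CR43459. It lay 1781 bp upstream of mir-277 and had signals of 28.9 in replicate 1 and 56.8 in replicate 3. At mir-375, in an exon of lncRNA:CR45345, 3 peaks had pooled signals of 95.2, 89.7 and 65.1, the last at rank 2226, the end of the IDR list. The strongest of them lay within the host, 636 bp downstream of the hairpin, and the others at the promoters of CG13949 and CG4291.

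Among microRNAs in protein-coding genes, mir-4972 had the highest signal, with 126 in replicate 1, 170.3 in replicate 3 and 299 in the pool. This peak lay at a promoter of foraging (for), which encodes a cGMP-dependent protein kinase, and 4492 bp downstream of the hairpin. mir-4943 was next, with a peak of 204 at the TSS region of its host CG5953, 360 bp away. mir-9378, in an intron of CG17124, had a peak of 187 only 152 bp upstream of the hairpin and 4235 bp from the host's TSS, and was the hairpin with the closest summit. The metabolic pair of mir-33 and its host SREBP, the regulator of lipid synthesis, had a peak of 73.1 that was 537 bp from the host's TSS.

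The loci without a host on the same strand included the third strongest. This was mir-4981 (2R:8015249-8015343), whose peak at 2R:8014284-8014504 lay 847 bp upstream, in intergenic sequence 647 bp from the TSS of CG14762. Its signals were 172 in replicate 1, 113 in replicate 3 and 286 in the pool, and its ranks 36 and 289. mir-955 followed with peaks of 221 and 88.0, both at promoters of CG14968. Weaker peaks were near mir-2496 (122 and 70.0), mir-4970 (117), mir-4957 (109), mir-87 (76.4) and mir-193 (65.1). The last had its summit 62 bp from the TSS of SMC5, at rank 2224 of the list.

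**Figure D3:**
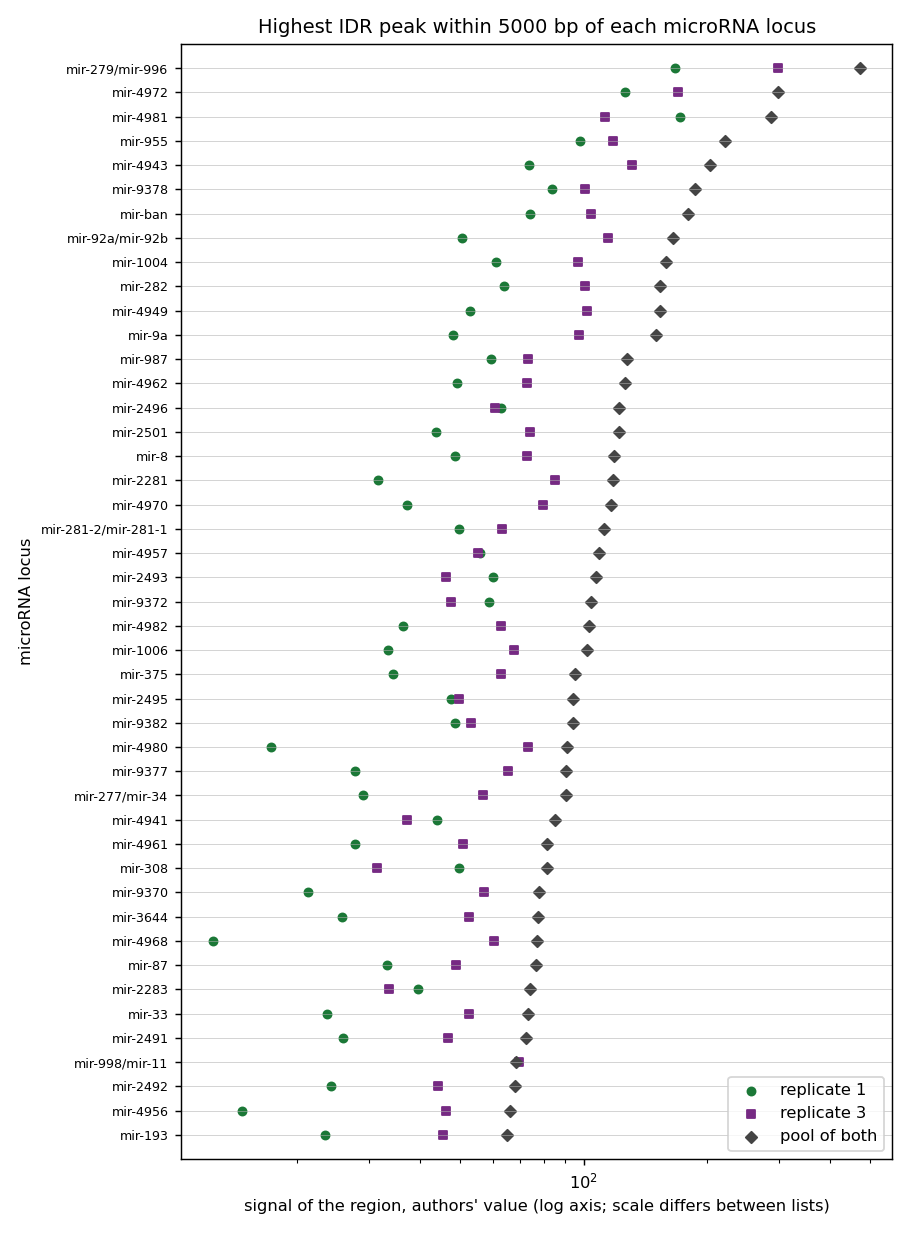
Signal (horizontal log axis, the authors' value) of the highest IDR peak within 5000 bp of each of the 45 microRNA loci, in replicate 1 (circles), replicate 3 (squares) and the pool (diamonds); the scale differs between lists. Pooled signals run from 473 at mir-279 with mir-996 to 65.1 at mir-193. The peak shown for mir-998 and mir-11 overlaps no region of replicate 1, although that list has other, weaker regions within 5000 bp of these hairpins.

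Several peaks counted at a microRNA locus lay at the promoter of a neighbour. Of the 59 peaks, 38 were within 500 bp of a TSS (64.4%, against 49.2% of all IDR peaks), 13 were intronic (22.0% against 35.5%), 4 lay in untranslated or noncoding exons and 4 between genes. In 26 the nearest TSS belonged to the host, and 16 peaks, at 15 loci, were within 500 bp of a host TSS. These loci were mir-279 with mir-996, mir-4972, mir-4943, mir-92a with mir-92b, mir-282, mir-2493, mir-4982, mir-8, mir-9382, mir-281-2 with mir-281-1, mir-4961, mir-308, mir-9370, mir-3644 and mir-2283. The host TSS was not always upstream of the hairpin. At mir-4972, mir-281-2 with mir-281-1, and mir-92a, the peak and that TSS lay downstream, by 4492, 1520 and 469 bp for the summit. A transcript that starts there would not hold these hairpins, although mir-92b lies downstream of the jigr1 TSS. For example, mir-308 lies in an intron of RpS23, a ribosomal protein gene, whose peak was 23 bp from its TSS and had signals of 49.8 in replicate 1, 31.3 in replicate 3 and 81.3 in the pool. By contrast, the peak near mir-998 and mir-11, in introns of the cell cycle gene E2f1, lay 113 bp from a TSS of the insulin receptor gene InR. It had no region in replicate 1, with a signal of 69.4 in replicate 3 and 68.3 in the pool. The summits near mir-1004, mir-2501, mir-9372, mir-2495 and mir-987 were likewise at promoters of bowl, msk, RpL36, RpL37A and Myd88. A summit near a hairpin does not say which gene it belongs to.

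The remaining peaks at the 45 loci had pooled signals between 66.0 and 154. They lay in introns of Tlk (near mir-4962), Tis11 (mir-9377), Notum (mir-4941), Mob2 (mir-4968), Sxl (mir-4956), Drak (mir-2492) and fog (mir-2491), in an intron of CG12054 (near mir-4949), and near mir-1006, mir-2281 and mir-4980. Notum encodes a secreted inhibitor of Wingless, and Sxl is the master switch of sex determination. The 3 peaks at mir-281-2 and mir-281-1, in the Oda gene, had signals of 112, 89.3 and 76.0.

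By host, 22 of 88 loci in an intron of a protein-coding gene had an IDR summit within 5000 bp (25.0%, exact interval 16.4 to 35.4) and 6 of 17 in an untranslated exon (35.3%, 14.2 to 61.7). In coding exons the count was 3 of 19 (15.8%, 3.38 to 39.6). In exons of a noncoding host it was 7 of 28 (25.0%, 10.7 to 44.9) and in introns of one 0 of 3 (upper bound 70.8). Of the loci with no host on the same strand, 7 of 47 had one (14.9%, 6.20 to 28.3). The intervals overlap throughout. Clusters of hairpins had a summit at 5 of 26 loci (19.2%) and single hairpins at 40 of 176 (22.7%).

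**Figure D4:**
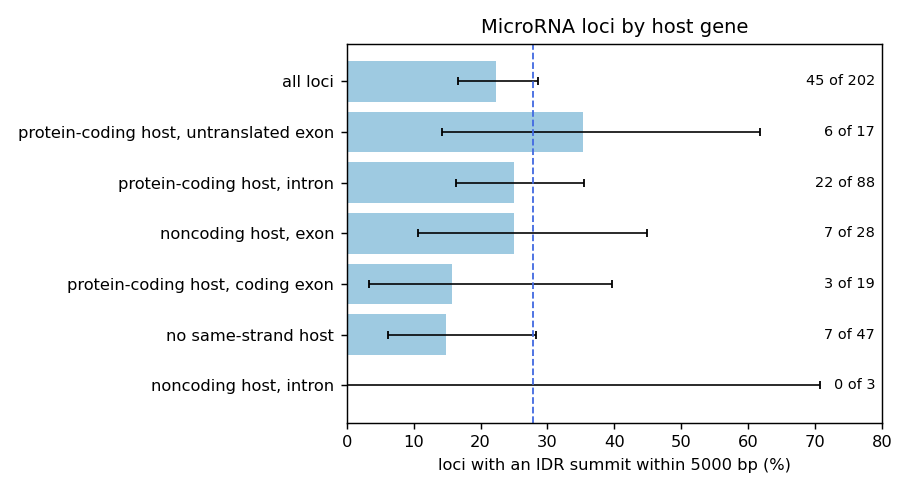
Share of microRNA loci with an IDR summit within 5000 bp (horizontal axis, percent) by the kind of host gene; bars are shares, black lines their 95% exact intervals, the counts stand at the right, and the dashed line marks all annotated genes (27.9%). The intervals of all classes overlap.

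Promoters of host genes were also counted whatever their distance from the hairpin. Of 124 protein-coding hosts, 26 carried an IDR summit at a TSS, within 500 bp (21.0%, interval 14.2 to 29.2), where 9.68% of all protein-coding genes had one. These protein-coding hosts had a median length of 13462 bp and a mean of 2.20 TSSs, against 2166 bp and 1.41 for all protein-coding genes, and the part of length and TSS number in this difference was not tested. Of 32 noncoding hosts, 3 had such a summit (9.38%, exact interval 1.98 to 25.0), against 3.73% of noncoding genes: lncRNA:CR31044, lncRNA:CR43626 and lncRNA:CR43650, the hosts of mir-279 with mir-996, of mir-282 and of mir-8.

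On a list of microRNAs with a well-known role in development or physiology, 7 of 21 loci had an IDR summit (33.3%). The share was 22.3% for all loci and 27.9% for all annotated genes. The Hox microRNAs and the mir-309 and mir-310 clusters were listed apart, and their loci had no IDR summit within 5000 bp. The 7 were mir-279 with mir-996, mir-ban, mir-92a with mir-92b, mir-282, mir-9a, mir-8 and mir-277 with mir-34. The list was drawn up with earlier results on these data known, and no test was made. Among those without, mir-14, a suppressor of cell death, came closest. Its strongest pooled region within 5000 bp had a signal of 55.3, rank 2970, and it was the only locus that was among the 2226 highest regions of both replicates (ranks 1536 and 1981) without an IDR summit. The nearest IDR peak, 6580 bp away near CG1888, had a signal of 671. mir-184 was 8914 bp from a summit and had a pooled signal of 22.4.

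The other well-known loci without an IDR summit within 5000 bp differed in their pooled signals. The highest pooled signal within 5000 bp was 23.8 at mir-1, which acts in muscle, and 18.2 at mir-124, which acts in neurons, with IDR summits 72382 and 81976 bp away. It was 29.4 at the let-7 complex (mir-100, mir-let7 and mir-125), which times the larval to adult transition, where the nearest summit was 32612 bp away. These 3 values were below 31.1, the median of the highest pooled signal over the 123 loci with a pooled region and no IDR summit. The median of single regions over the whole pooled list was 24.5, which is not a like measure. The highest pooled signal was 49.8 at mir-7, 50.5 at mir-bft (also called mir-263a), 22.2 at mir-263b, 35.7 at mir-276a, 36.2 at mir-276b, 22.4 at mir-278, 25.4 at mir-315 and 27.5 at mir-31a. No pooled region lay within 5000 bp of mir-31b.

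Neither of the 2 loci listed as Hox microRNAs had an IDR summit within 5000 bp. mir-iab-4 and mir-iab-8, antisense hairpins of the bithorax complex that repress Ubx and abd-A, had a highest pooled signal of 33.0, and the nearest IDR summit was 13058 bp away. The value was 29.7 at mir-10, in the Antennapedia complex, with a summit 46651 bp away. The mir-309 cluster of 8 hairpins, which clears maternal messenger RNAs in the early embryo, reached 19.9, with its nearest IDR summit 28540 bp away. The locus of the mir-310 cluster reached 46.2, with a summit 38086 bp away. The group of hairpins from mir-959 to mir-964 (2L) also lacked a summit and had no pooled region in the window.

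Hairpins were also grouped by shared seed, arm by arm, so that groups overlap and the same hairpins can be counted once for each arm. Of 28 such groups that reach over more than 1 locus, 11 had an IDR summit at 1 or more loci, 1 had it at more than 1 locus, and 0 had it at every locus. Nothing particular to shared seeds is read from these counts, since 22.3% of all loci had a summit. The group with a summit at more than 1 locus was the K box family, whose seed pairs with a motif in the 3′ ends of Notch target messages. It counted 14 hairpins at 7 loci, and mir-11 and mir-308 had a summit. The mir-2 cluster in spitz (spi) had its nearest summit 5490 bp away, 167 bp from a spi TSS, with a signal of 251. The mature sequences of mir-11, a member, and of its neighbour mir-998, which is not one, are shown because their seeds differ although they share an E2f1 locus and its peak.
mir-11, 3p arm: cAUCACAGucugaguucuugc
mir-998, 3p arm: uAGCACCAugagauucagcuc
The seed of mir-279 and mir-996 is also that of mir-286 in the mir-309 cluster, and the seed of mir-92a and mir-92b that of mir-310, mir-311, mir-312 and mir-313. In both families the other locus lacked a summit. Of mir-9a, mir-9b and mir-9c, mir-9a had a summit within the window, and the cluster of mir-9c, mir-306, mir-79 and mir-9b missed it by little, at 5052 bp (signal 82.3).

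The edge of the window decided some loci. The farthest summit counted was 4989 bp from mir-9370 (signal 78.0), and the nearest not counted was the one at 5052 bp from mir-9b. Between 5000 and 10000 bp lay the nearest summits of 30 further loci. After mir-9b came mir-4983, mir-1012, the mir-2 cluster in spi, mir-3643, mir-966, mir-2500, mir-9385, mir-1001, mir-4945 and mir-14, at 5238 to 6580 bp. Then followed mir-9380, mir-317, mir-1005, mir-4978, mir-9383, mir-318 with mir-994, mir-4912, mir-4975, mir-989 and mir-274, at 6974 to 8326 bp. The last were mir-9384, mir-988, mir-2535b with mir-1007, mir-184, mir-4917, mir-4946, mir-4958, mir-1013 and mir-9376, at 8442 to 9961 bp. Some of these summits were strong, such as the one of signal 653 that lay 7683 bp from mir-9383 and 127 bp from the TSS of the mitochondrial ribosomal protein gene mRpS10.

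Below the IDR list, most loci still had weak regions. The pooled list is labelled as peaks and background used as input for IDR, so its weak regions may be background. In the pooled list 168 of 202 loci had a region within 5000 bp (83.2%, exact interval 77.3 to 88.1), against 82.9% of all genes, 80.1% of other short genes and 60.7% of genome positions. For the 123 loci with a pooled region and no IDR summit, the highest signal ran from 16.9 to 64.7 with a median of 31.1. The highest of these values was at mir-11182, at rank 2242, just under the list of 2226 peaks, followed by 63.0 at mir-275 with mir-305. The other 34 loci had no pooled region in the window, among them mir-133 with mir-288, mir-137, mir-219 and mir-316.

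Both replicates held most of the peaks near hairpins. Of the 59 peaks, 58 overlapped a region of replicate 1 and 59 one of replicate 3, and 41 were among the 2226 highest regions of both (69.5%, as in the whole IDR list, 69.5%). The log2 ratio of the signal in replicate 3 to that in replicate 1 had a median of 0.65 (SD 0.65, 58 peaks), beside 0.60 (SD 0.52) over all IDR peaks, and the lists may differ in scale. Counted from the replicates alone, 33 of 202 loci were within 5000 bp of one of the 2226 highest regions in each replicate (16.3%, exact interval 11.5 to 22.2), against 21.6% of all genes, 19.6% of other short genes and 9.97% of positions. Of the 45 loci with an IDR summit, 32 met this rule and 13 did not. The rule did not require the same region in both replicates, and mir-4968 met it with a different peak in each (ranks 1077 and 1047). Besides the peak near mir-998 and mir-11, which has no region in replicate 1, examples of peaks that ranked much higher in replicate 3 were the stronger one at mir-4968 (ranks 12657 in replicate 1 and 1047 in replicate 3), the one at mir-4956 (8926 and 1712) and both at mir-4980 (6290 and 731). The weaker peak at mir-4968 went the other way (1077 and 4164). The peak at mir-308 ranked higher in replicate 1 (739) than in replicate 3 (3716).

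**Figure D5:**
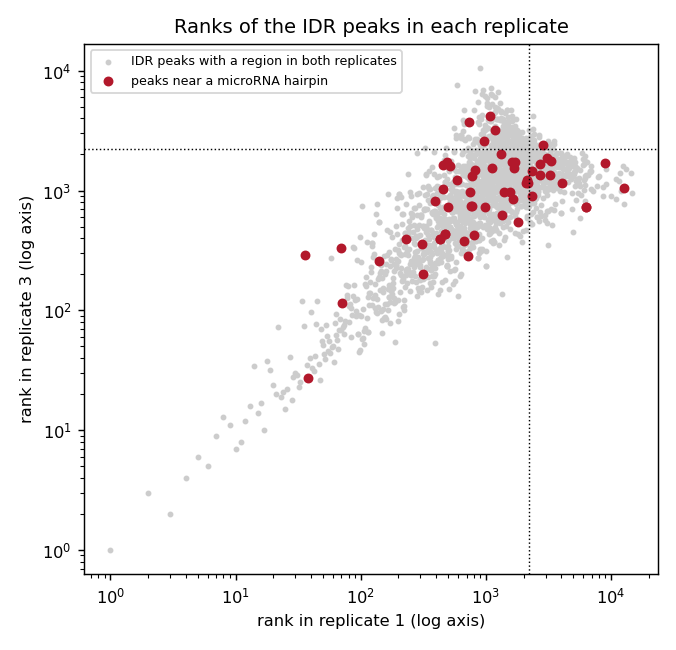
Rank of each IDR peak in replicate 1 (horizontal log axis) and in replicate 3 (vertical log axis), grey for all IDR peaks that both replicate lists hold and red for peaks near a microRNA hairpin; dotted lines mark rank 2226. Of the 59 peaks near hairpins, 41 lie below both lines, and the lowest red point, with ranks 38 and 27, is the peak at mir-279.

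The peaks near hairpins reached from rank 32 to the end of the IDR list. Their median signal was 100.1 (range 65.1 to 473), against 97.5 (65.1 to 1022) for all 2226 peaks, and 30 of 59 were in the upper 1113 of the list, 13 among the highest 500 and 3 among the highest 100. By arm, loci with a summit numbered 10 of 41 on 2L, 7 of 40 on 2R, 9 of 30 on 3L, 9 of 49 on 3R, 0 of 2 on 4 and 10 of 40 on X.

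Genes of the microRNA and related small RNA pathways were examined by the same rule, from the gene body. Of 13 genes, 8 had an IDR summit within 5000 bp, where 29.7% of protein-coding genes had one. For gw, which encodes the silencing partner of Argonaute 1, the summit was 163 bp from its own TSS, with a pooled signal of 122 and ranks 724 and 806 in replicates 1 and 3. For the other 7 genes, the strongest summit in the window had its nearest TSS in another gene, and r2d2 and Tailor each had a second summit for which the TSS was not looked up. They were pasha (signal 348, at Mnat9), the Dicer partners r2d2 (183, at Herp) and loqs (110.2, at CG7099), AGO1 (88.1, at shot), the methyltransferase gene Hen1 (85.6, at bsd), the uridylyltransferase gene Tailor (81.5, at Dpck) and the exonuclease gene Nbr (77.1, at Coq3). A nearest TSS in another gene does not place a summit away from the pathway gene. The r2d2 summit at 2L:7799933 was also within 500 bp of the start of r2d2 (2L:7800147, plus strand), and its second summit was 12 bp from the gene body. The Hen1 summit lay inside Hen1. drosha, Dcr-1, Dcr-2, AGO2 and the exportin gene Ranbp21 had no IDR summit in the window, and their highest pooled signals were 36.6, 33.0, 48.9, 43.5 and 53.2 in that order.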

How the data were processed

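The authors deposited, per the text descriptions filed with the lists, regions called from the alignments of each replicate and of the pool with a control file, and a list of optimal IDR peaks derived from them, in builds dm6 and dm3. The IDR threshold, the peak caller and the aligner were not given in the sources used here. The deposited signal of each region, on a scale not stated, was used to rank regions within a list. The dm3 lists were not used, and coordinates were never converted. Per the labels, the replicates are biological, and whether they came from separate collections is not given.

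Genes came from the Ensembl release 115 annotation (BDGP6, dm6 coordinates), which has no gene class for microRNA precursors, so members were taken by symbol. Transposable elements and 481 mature products that the annotation lists as genes of their own were left out. Sequences came from the RefSeq release 6 assembly and its annotation. A summit is column 2 plus column 10 of a region, given 1-based, and its distance is that to the nearer hairpin end. A host is a gene that holds the hairpin on the same strand, protein-coding genes first and then the shortest. Replicate values are those of the strongest replicate region that overlaps a peak by at least 1 bp. Shares carry 95% exact Clopper-Pearson intervals, which cover counting error only. Loci can share peaks and neighbours, so they are not independent. With 1 group of 2 libraries, no test over samples was possible and no p-value was computed. The loci named are all those with an IDR summit, those with the nearest summit within 10000 bp, and a list of well-known microRNAs. Members and lists were chosen with earlier results of these data known. The seed groups, the group of mir-959, mir-11182, mir-275 and the loci with no pooled region were named after their values were seen. Distances and the joining of loci were tested on simulated data. Python 3.11.15, pandas 2.3.3 and scipy 1.17.1 were used.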

Additional observations from a re-analysis of the deposited data

How the results depend on the processing

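The number of loci with an IDR summit followed the window and the threshold: it was 10 within 1000 bp, 19 within 2000 bp, 75 within 10000 bp and 25 with the upper 1113 peaks of the list, against 45 of 202. With hairpins in a same-strand host left out, it was 7 of the 50 loci that remained. The numbers of hairpins were 10, 20, 86 and 28 under the first 4 of these settings, against 50. The count of loci was 46 with any part of the region in the window, 44 to 47 with other ways of joining hairpins, and 41 to 46 from the highest regions of a single replicate (47 to 51 hairpins). The median signal was 127 in the upper 1113 peaks, and 42.5 to 60.4 in the single replicate lists, whose scale differs. Loci with a high region in both replicates numbered 19 and 55 with 1113 and 4452 high regions per replicate, 14 within 2000 bp and 60 within 10000 bp, against 33. Loci with a peak at a host TSS numbered 8 within 200 bp, against 15. The median distance to the nearest summit was 37286 bp with the upper 1113 peaks. No paired analysis was possible because the series holds 1 group. Depth is unknown, and the replicate and pooled lists each hold 30000 regions. A region missing from one of them may rank below its last entry, so it is not shown to be absent.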
